A study of Mus musculus with 16 samples.

Results

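This report describes 45 genes of the extracellular matrix in murine embryonic stem cells (ESC) and mesodermal cells in which Notch1 could be switched on: collagens, laminins and other basement membrane proteins, adhesive glycoproteins, integrins, matrix proteases, their inhibitors, and enzymes that fold and crosslink collagen. Members were chosen by gene symbol, and each was read from the probe set that names that gene alone and has the highest mean over all 16 arrays. Of the 45 genes, 43 had such a probe set, out of 18193 genes on the arrays. Spp1 had none, and Loxl2 was covered by probe sets shared with other genes alone, so neither was read.

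Cells secrete collagens, laminins and glycoproteins that assemble outside the cell, hold to them through integrins, and remodel them with metalloproteases that TIMP proteins restrain. ESC and the endoderm that forms around them lay down a laminin and collagen IV basement membrane, and cells that leave the epiblast as mesoderm cross into a looser matrix rich in fibronectin. Cleavage of the Notch1 receptor frees an intracellular domain, which enters the nucleus and activates genes together with the DNA-binding protein RBP-J.

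EB5 NERT is an ESC line stably transfected with a pCAG vector that encodes the murine Notch1 intracellular domain fused to an estrogen receptor hormone-binding domain, so that 4-hydroxy-tamoxifen (OHT) moves the protein into the nucleus. EB5 control carries the vector without that insert, so that line and clone cannot be told apart from the presence of the fusion protein. ESC were kept for the 4 h of treatment in serum-free ectodermal medium (ESCe) or in mesodermal medium with 1% serum (ESCm), and mesodermal cells were made on collagen IV by 4 d of differentiation. OHT was given at 1 µM, and cycloheximide (CHX), which blocks protein synthesis, at 50 µg/ml. A single array was hybridised for each combination of OHT (absent or present) with NERT ESCe, NERT ESCm, control ESCm and control mesodermal cells. Mesodermal cells of the NERT line were the replicated ones, at 2 arrays for each of the 4 combinations of OHT and CHX. Whether replicates were grown apart is not stated, so the p-values may describe technical spread alone.

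Values are linear model-based intensities of Affymetrix arrays, and they compare 1 probe set across arrays, not genes with each other. Array medians ran from 42 to 46.9, and 46.2% to 48.7% of an array's values were at 50 or more. Changes below are differences of log2(intensity + 25), which understate changes of dim probe sets, with a standard error (SE) and with limma p-values adjusted over all probe sets tested. A gene was called higher or lower at an adjusted p under 0.05. The label of the mesodermal cells was checked on markers: the summed intensity of 11 early mesoderm and primitive streak genes was 636 to 743 on the 4 arrays of NERT ESC, 738 to 815 in control ESCm, 1638 to 1666 in control mesodermal cells and 4488 to 5364 on the 4 arrays of NERT mesodermal cells without CHX. The sum of 10 pluripotency markers was 33718 to 35563 in NERT ESC and 33808 to 34331 in control ESCm. It was 30128 to 30435 in control mesodermal cells and 22441 to 23727 in NERT mesodermal cells without CHX. Pluripotency signal thus remained in the mesodermal cells, more of it in the control line. Kdr, which encodes Flk1, stood at a log2 difference of 0.01 between mesodermal cells and ESCm over both lines (adjusted p = 0.968).

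Of the 43 genes, 33 were at 50 or more on all 16 arrays. Vtn (vitronectin) and the integrin subunit Itgb3 were at 50 or more on none and were not tested, which left 41. The log2 range of a gene over the 16 arrays ran from 0.42 for Lamc1, the laminin gamma chain, to 3.77 for Adamts1, with a median of 1.5.

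**Figure D1:**
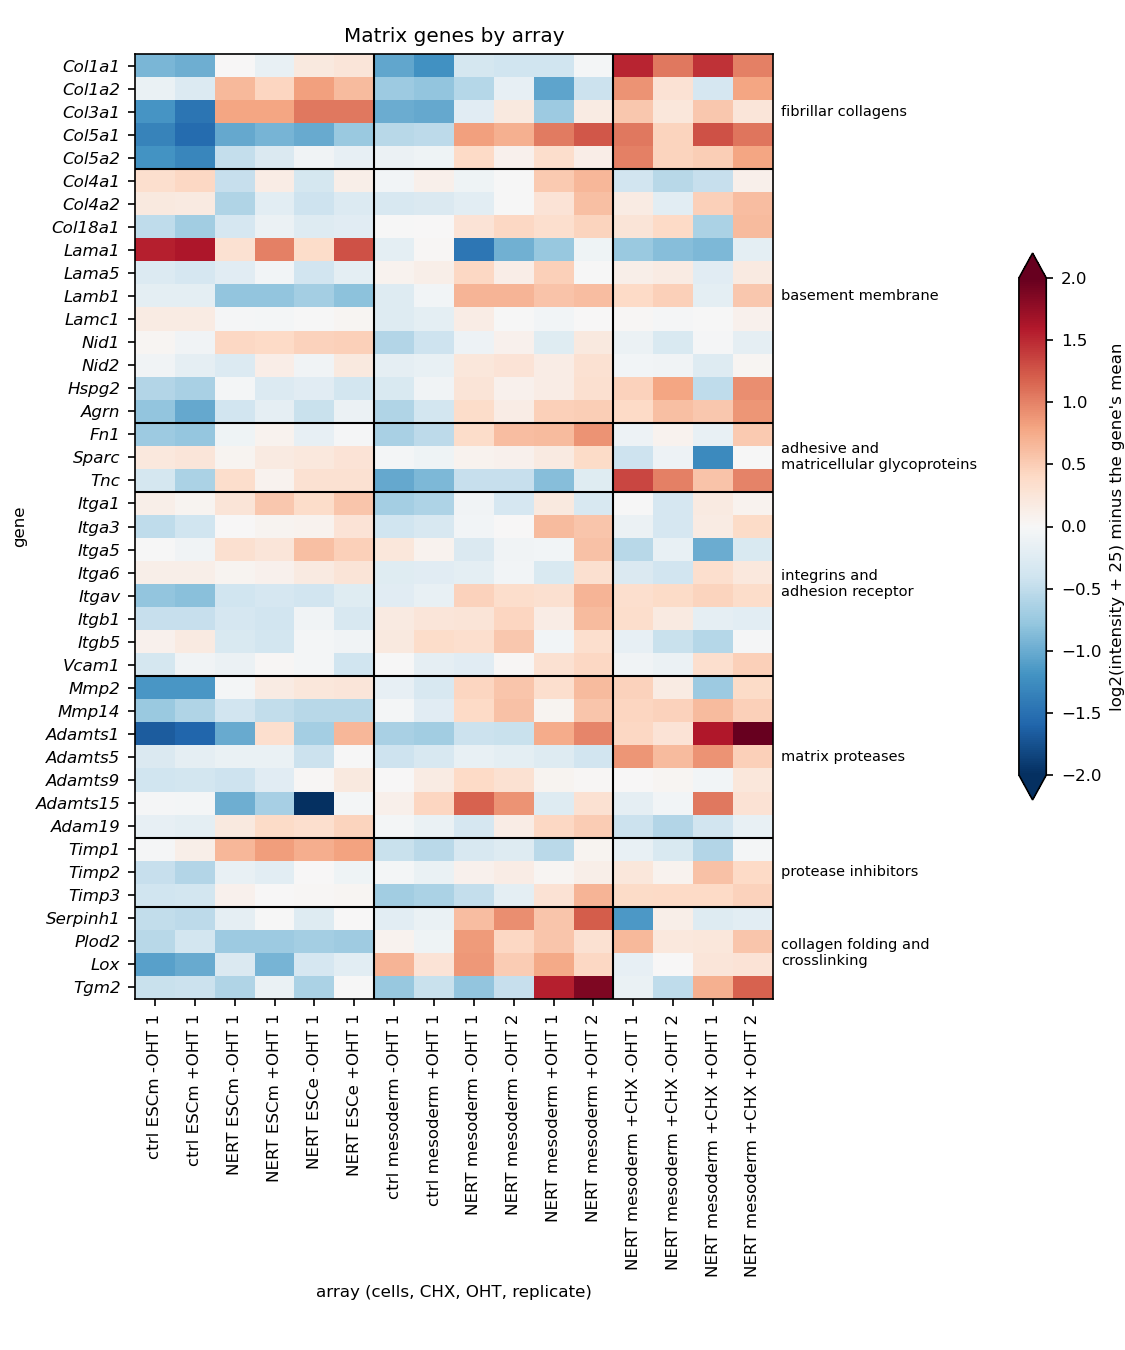
Each cell gives log2(intensity + 25) of 1 gene on 1 array minus that gene's mean over the 16 arrays, for the 41 tested genes in rows by role and the arrays in columns. The arrowed ends of the colour scale hold values beyond 2 in size; Col1a1, Tnc and Adamts5 are highest on the 4 arrays with CHX, and Adamts1 and Tgm2 are brighter with OHT than without in each NERT condition.

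For each role the gene with the brightest probe set is given in every condition, as single arrays or as mean ± SD (n = 2). Col5a1, a minor fibrillar collagen chain that sets fibril diameter, stood at 157 and 134 in control ESCm without and with OHT, at 201 and 217 in NERT ESCm, at 203 and 251 in NERT ESCe, at 288 and 297 in control mesodermal cells, at 759 ± 42.9 and 995 ± 97.7 in NERT mesodermal cells, and at 766 ± 229 and 1015 ± 106 in the latter with CHX. Every mesodermal array lay above every ESC array. Col18a1, the basement membrane collagen that releases endostatin, stood in the same order at 2016 and 1769.5, at 2268 and 2666, at 2407 and 2474, at 2859 and 2888, at 3687 ± 253 and 3794 ± 192, and at 3641 ± 245 and 3177 ± 1864. The wide last value held 1 array at 1859 and 1 at 4495.

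Sparc, a collagen-binding matricellular glycoprotein, stood in that order at 5498 and 5605, at 4937 and 5339, at 5498 and 5711, at 4604 and 4461, at 5016 ± 45.7 and 5796 ± 577, and at 3976 ± 626 and 3320.4 ± 1947. Its 12 arrays without CHX lay between 4461 and 6203. Itga6, the laminin-binding integrin chain of ESC, stood at 1678 and 1674, at 1596 and 1641, at 1757 and 1846, at 1304 and 1312, at 1413 ± 107 and 1586 ± 478, and at 1220.0 ± 61.1 and 1861 ± 117. Mmp14, a membrane-bound protease that cuts collagen and activates Mmp2, stood at 374 and 417, at 486 and 448, at 431 and 428, at 623 and 546, at 917 ± 90.7 and 812 ± 204, and at 888 ± 13.6 and 961 ± 78.0. Its 10 mesodermal arrays lay above its 6 ESC arrays.

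Timp1, a secreted inhibitor of matrix metalloproteases, stood in the same order at 402 and 447, at 659 and 749, at 697 and 736, at 295 and 274, at 329.6 ± 12.2 and 350.2 ± 109, and at 346 ± 29.3 and 331 ± 95.6. It was highest in NERT ESC. Serpinh1, the chaperone HSP47 that folds procollagen, stood at 1008 and 987, at 1266 and 1419.5, at 1199 and 1437, at 1239 and 1303, at 2477 ± 380.0 and 2733 ± 882, and at 1093 ± 652 and 1211 ± 25.5. The 4 arrays of NERT mesodermal cells without CHX lay above the other 12.

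The first comparison asked which matrix genes respond to 4 h of Notch1 activation in mesodermal cells. Adamts1 and Tgm2 rose, and none of the 41 tested genes fell. That is 2 of 41, beside 0.613% of all 23971 probe sets called higher and 0.28% lower (0.893% in either direction, and 1.13% of genes at 1 probe set each). The median log2 change of the 41 was 0.05, beside -0.04 over all probe sets, and 24 of the 41 lay above 0. Of a longer list of 96 other tested matrix and adhesion genes, 0 were called by limma.

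Tgm2 encodes transglutaminase 2, which crosslinks matrix proteins such as fibronectin, and lies at chr2:158116405-158146392 (GRCm38.p6). Its intensity was 102 and 135 on the arrays without OHT and 619 and 781 on those with OHT. The groups did not overlap, and the mean rose 5.90-fold from 119 to 700 (log2 change 2.34, SE 0.23, limma adjusted p = 0.000932). The other 4 Tgm2 probe sets that were tested rose as well, with log2 changes of 1.18 to 2.31. Tgm2 kept its call in all 14 alternative settings, with adjusted p from 0.000297 to 0.0198.

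Adamts1 encodes a secreted metalloprotease that cleaves the proteoglycans aggrecan and versican, and lies at chr16:85793827-85803113 (GRCm38.p6) on the minus strand. Its intensity was 139 and 136 without OHT and 346 and 409.9 with OHT, again with no overlap. The mean rose 2.74-fold from 138 to 378 (log2 change 1.30, SE 0.20, limma adjusted p = 0.0132). With any of these 4 arrays left out the log2 change was 1.19 to 1.42 and the call was lost (adjusted p = 0.128 and 0.0946 without replicates 1 and 2 of the cells without OHT, and 0.057 and 0.124 without replicates 1 and 2 of those with OHT; range 0.00472 to 0.128 over 14 alternatives).

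The promoter of Adamts1 is shown because this gene is the only member called with OHT in mesodermal cells and in ESC. The window holds the 250 bases before the RefSeq start, chr16:85803114-85803363 on the minus strand of GRCm38.p6, written 5′ to 3′, and the capitals mark the letters TATAAA, 32 bases before the start. Motifs were searched on both strands.
Adamts1: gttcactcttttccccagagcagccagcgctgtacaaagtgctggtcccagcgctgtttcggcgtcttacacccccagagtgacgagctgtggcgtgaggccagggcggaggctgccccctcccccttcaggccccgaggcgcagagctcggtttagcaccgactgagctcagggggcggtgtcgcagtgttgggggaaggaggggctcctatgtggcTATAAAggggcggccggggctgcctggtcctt
Neither the RBP-J core letters TGGGAA nor the AP-1 letters TGANTCA occur in this window. Of 32851 RefSeq promoters cut to the same length, 21.6% held TGGGAA, 6.75% TGANTCA and 12.4% TATAAA, the last of which was searched after the others. Tgm2 has no entry in that table.

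The study lists 6 of the 45 genes, Adamts1, Adamts15, Lama1, Tgm2, Timp3 and Vcam1, as regulated by Notch1 on these same arrays, so their values here are not independent evidence of a response. The paper's rule was a fold change, a present call and an absolute difference in intensity, with no p-value named. A gene could meet it in ESC or in mesodermal cells with or without CHX, so it is unlike the test used here. The 4 listed genes that were not called here had groups that did not overlap. Because the study chose its genes by their change on these same arrays, that separation adds no evidence of a response. With so few arrays in a group, here and below, groups can also separate by chance. Timp3, an inhibitor that binds to the matrix, was at 76.2 and 98.5 without OHT and at 147 and 200.3 with OHT (log2 change 0.82, SE 0.19, adjusted p = 0.0875). Lama1, the laminin chain of the first basement membranes, was at 51.4 and 82.2 without and at 98.2 and 172 with OHT (0.78, SE 0.28, adjusted p = 0.398). Both stood higher on the arrays with OHT. Vcam1, an adhesion receptor for integrins, was at 24.5 and 33.6 without and at 46.2 and 52.4 with OHT (0.46, SE 0.16, adjusted p = 0.328). Adamts15, a protease related to Adamts1, was at 377 and 307 without and at 123 and 194 with OHT (-1.02, SE 0.27, adjusted p = 0.144), lower on the arrays with OHT.

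A second, dimmer probe set of Vcam1, chosen after its values were seen, is given by its values with no test, since it reached a mean of 50 with CHX and OHT alone. In mesodermal cells it stood at 2.9 and 4.03 without OHT and at 30.6 and 47.3 with OHT. With CHX it stood at 22.8 and 23.8 without and at 107 and 131 with OHT. In NERT ESCe and ESCm it stood at 4.49 and 4.32 without and at 40.3 and 27.4 with OHT, while the 4 control arrays read 1.72 to 8.75. The brighter probe set, by which the gene is read throughout, likewise reached a mean of 50 with CHX and OHT alone, and it was called in no comparison with OHT.

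**Figure D2:**
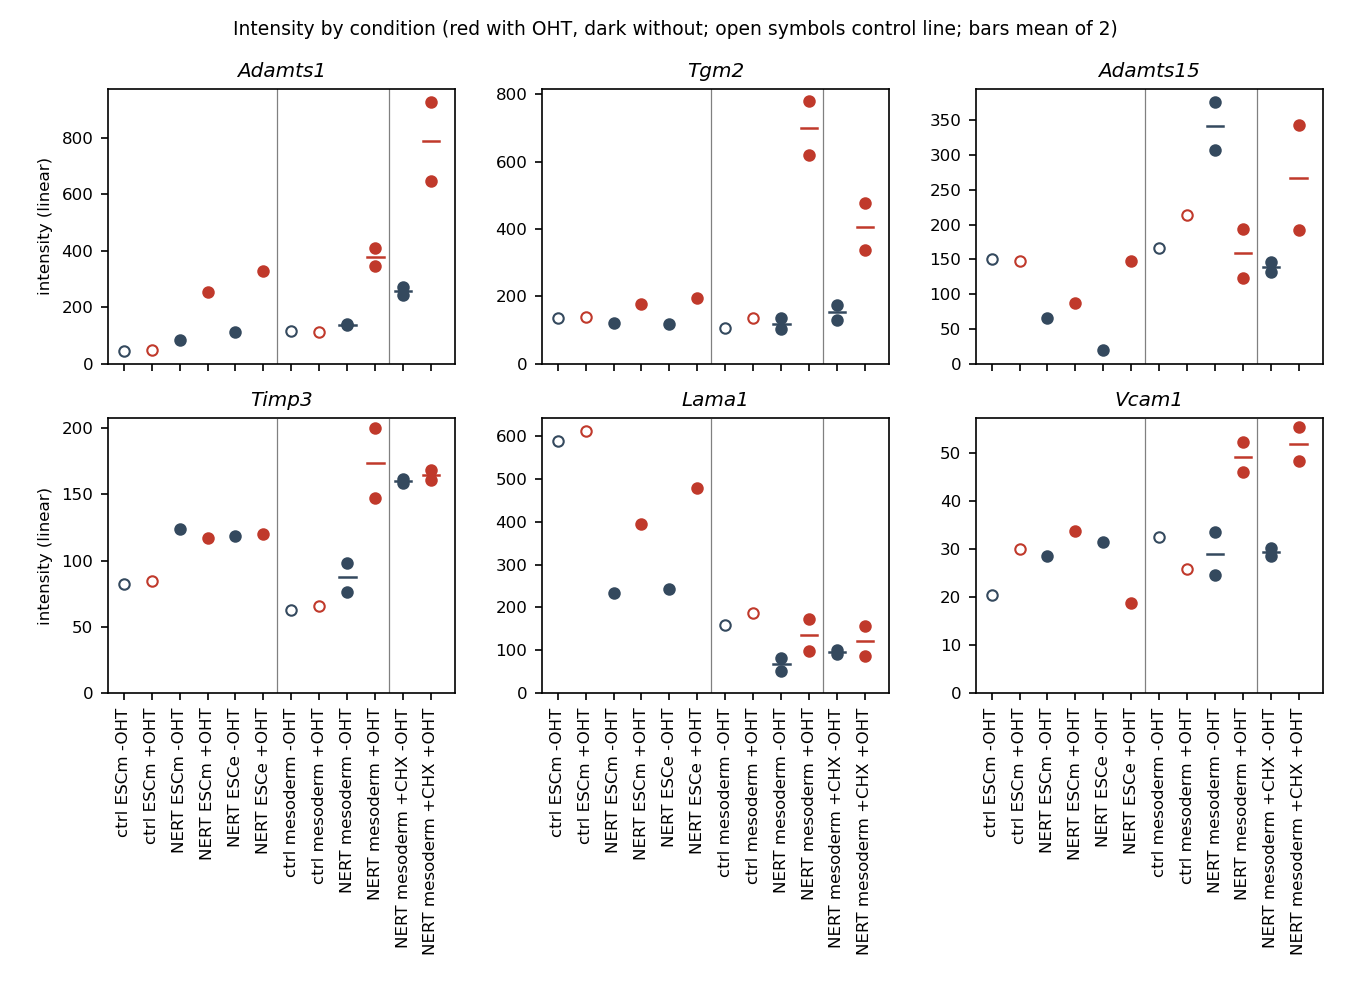
Linear intensity of the 6 genes that the study lists, by condition, with 1 point for each array and a bar at the mean of 2. Red points had OHT and open points are control cells; Tgm2 in mesodermal cells moves from 102 and 135 to 619 and 781, and the 4 control points of each gene show no called change.

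None of the 39 uncalled genes had an adjusted p under 0.0875, and their log2 changes ran from -1.02 to 0.82. By role, 0 of 5 fibrillar collagens, 0 of 11 basement membrane genes, 0 of 3 glycoproteins, 0 of 8 integrins and adhesion receptors, 1 of 7 proteases, 0 of 3 inhibitors and 1 of 4 folding and crosslinking genes passed limma at an adjusted p under 0.05. At an unadjusted p under 0.05, limma gave 10 of the 41 and 8.03% of all probe sets. None of the early mesoderm, endoderm, pluripotency, blood or fibroblast markers was called with OHT by limma, and 1 of 7 neuroectoderm markers, Pou3f1, fell by 0.83 on the log2 scale.

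The same induction under CHX asks which of these changes do not need new protein. Adamts1 and Tgm2 rose again, 2 of 41 beside 0.567% of probe sets called higher and 0.0501% lower (0.617% in either direction, and 0.796% of genes at 1 probe set each). Adamts1 was at 270.4 and 243 with CHX alone and at 647 and 928 with CHX and OHT, a 3.07-fold rise of the mean from 257 to 787 (log2 change 1.51, SE 0.20, limma adjusted p = 0.00515). Tgm2 was at 175 and 130.2 with CHX alone and at 336 and 476 with CHX and OHT, a 2.66-fold rise from 153 to 406 (1.27, SE 0.23, adjusted p = 0.0355). The groups of both genes did not overlap. Of the other 4 tested Tgm2 probe sets 2 passed here as well, with log2 changes of 1.34 and 1.33. The remaining 2 changed by 0.69 and 0.52 and were not called (limma adjusted p = 0.459 and 0.599).

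Both calls depended on single arrays. Adamts1 lost its call without replicate 1 of the cells with CHX alone (adjusted p = 0.0503) and without replicate 2 (0.0761), over a range of 0.00245 to 0.0761. Tgm2 lost it in 6 of 14 alternatives (range 0.0158 to 0.288): with no filter on low values (1.27, 0.0819), without replicates 1 and 2 with CHX alone (1.46, 0.116, and 1.09, 0.288), without replicate 2 with CHX and OHT (1.04, 0.0641), and without replicates 1 and 2 with OHT and no CHX (1.27 each, 0.0507 and 0.0517). Without replicate 2 with CHX and OHT 6 members were called by limma, 1 higher and 5 lower.

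Whether CHX altered the response was tested as the difference of both OHT changes. No member passed limma, 0 of 41 beside 0.0125% of probe sets called higher and 0.0125% lower (0.025% in either direction, and 0.041% of genes at 1 probe set each), and 3 members and 4.51% of probe sets had an unadjusted p under 0.05. These 3 are named after their values were seen. Adamts15 differed most, at 377 and 307 without and 123 and 194 with OHT, against 132 and 146 with CHX alone and 343 and 192 with CHX and OHT (difference of log2 changes 1.81, SE 0.38, adjusted p = 0.339). Tgm2 changed less with CHX than without (-1.06, SE 0.32, adjusted p = 0.816). Timp3 stood at 159 and 161 with CHX alone and at 161 and 169 with CHX and OHT (difference -0.78, SE 0.26, adjusted p = 0.929), within its range of 147 to 200.3 with OHT and no CHX. Among the other matrix genes 1 of 96 rose with OHT under CHX, Col27a1, a fibrillar collagen of cartilage (1.03, SE 0.18, adjusted p = 0.0312).

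In NERT ESC, read as the mean change over ESCe and ESCm, Adamts1 was the single member that rose, 1 of 41 beside 0.507% of 25847 probe sets called higher and 0.031% lower (0.538% in either direction, and 0.768% of genes at 1 probe set each). It stood at 113 without and 326 with OHT in ESCe and at 85.2 and 255 in ESCm. The mean rose 2.93-fold from 99.2 to 291 (log2 change 1.35, SE 0.17, limma adjusted p = 0.0018), in both media. The call held in all 13 alternatives. Those that left out an array left out NERT mesodermal ones, so the ESC arrays that give this change were always kept. The test rests on 1 array for each medium and condition, whose spread is taken from the replicated mesodermal groups and from the difference between the media, and without either array of mesodermal cells with CHX and OHT 2 members were called.

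The listed genes Adamts15, Lama1 and Tgm2 were also higher with OHT in each medium without passing the test. Adamts15 was at 19.2 and 147 in ESCe and at 65.3 and 87.3 in ESCm (mean log2 change 1.14, SE 0.33, limma adjusted p = 0.295), with changes of 1.96 in ESCe and 0.31 in ESCm. Lama1 was at 243 and 479.8 in ESCe and at 233 and 394 in ESCm (0.81, SE 0.25, adjusted p = 0.376). Tgm2, the largest change in mesodermal cells, was at 117 and 194 in ESCe and at 119.9 and 176 in ESCm (0.55, SE 0.20, adjusted p = 0.574). The 2 collagen IV chains of the basement membrane also stood higher: Col4a1 was at 800.3 and 1126 in ESCe and at 739.6 and 1142 in ESCm (0.54, adjusted p = 0.336), and Col4a2 at 576 and 642 and at 505 and 671. Of the 101 other matrix genes tested 0 were called by limma, and 6 members and 6.2% of probe sets had an unadjusted p under 0.05.

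The difference of the OHT change between ESC and mesodermal cells passed limma for 0 of 41 members, beside 0.00387% of probe sets called higher and 0.0271% lower (0.031% in either direction, and 0.047% of genes at 1 probe set each). At an unadjusted p under 0.05 there were 6 members and 8.18% of probe sets. Tgm2 came nearest, with a log2 change smaller by 1.79 in ESC (SE 0.28, adjusted p = 0.0689). For Adamts1 the difference was 0.04 (SE 0.24, adjusted p = 0.981). A greater or smaller response in either population was thus not shown for any of the 41 genes.

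OHT itself was tested in EB5 control cells, as the mean change over ESCm and mesodermal cells. None of the 41 members was called by limma, beside 0% of 25847 probe sets, and at an unadjusted p under 0.05 there were 0 members and 1.19% of probe sets. Adamts1 stood at 44.6 and 48.8 in control ESCm and at 116 and 111 in control mesodermal cells without and with OHT. Tgm2 stood at 137 and 138 and at 106 and 137. The log2 changes of the 41 genes ran from -0.17 to 0.16.

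**Figure D3:**
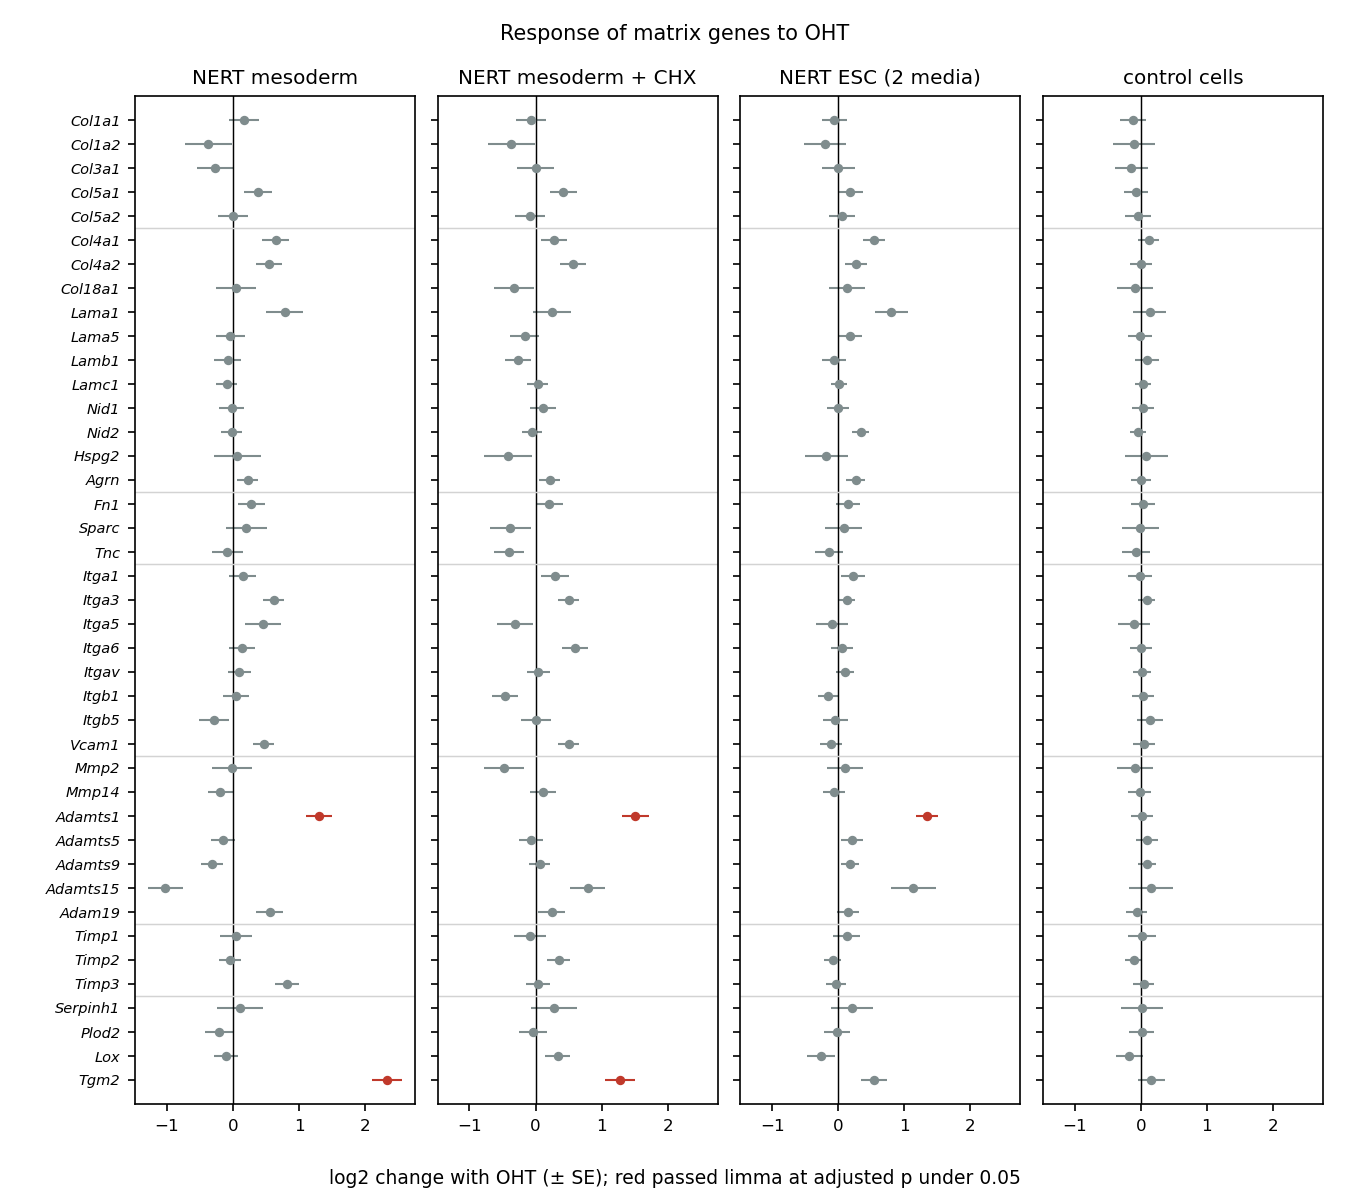
Points give the log2 change with OHT and bars ± SE for the 41 tested genes, by role from top to bottom, in NERT mesodermal cells, in the same with CHX, in NERT ESC over 2 media and in control cells. Red points passed limma: Adamts1 at 1.30, 1.51 and 1.35 in the NERT panels, and Tgm2 at 2.34 and 1.27 in the mesodermal panels.

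CHX alone, without OHT, raised 5 of the 41 genes and lowered 4, beside 21.1% of all probe sets called higher and 11.7% lower (32.8% in either direction, and 33.8% of genes at 1 probe set each). The members' share of 22% was not above that background. The median log2 change of the members was -0.04, beside 0.06 over all probe sets. Bulk RNA cannot tell fewer cells of a type from less RNA per cell, and over the same arrays 9 of 10 early mesoderm markers fell, 6 of 10 endoderm markers rose, and 4 of 7 neuroectoderm markers rose and 1 fell. The summed early mesoderm markers were at 4488 to 5364 without and 1260 to 1585 with CHX over the arrays with and without OHT, and the endoderm markers at 1378 to 1794 and 2581 to 2992. The part of these shifts in the matrix values was not tested.

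Among the fibrillar collagens Col1a1, the main chain of collagen I, was at 132 and 128 without and at 554 and 395 with CHX. It rose 3.65-fold from 130 to 475 (log2 change 1.67, SE 0.22, limma adjusted p = 0.000403). A second Col1a1 probe set changed by 0.67 and was not called (adjusted p = 0.106). Of the glycoproteins Tnc, tenascin C, a matrix protein that loosens cell adhesion, was at 44.7 and 44.6 without and at 217 and 169 with CHX. It rose 4.32-fold from 44.7 to 193 (1.64, SE 0.23, adjusted p = 0.000525). Both genes kept their call in 14 of 14 alternatives. Among the 8 mesodermal arrays Tnc reached a mean of 50 with CHX alone or CHX and OHT, and so entered the test through the groups in which it was high; tested with no filter it had an adjusted p of 0.00155 (range 0.000233 to 0.00981).

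Tnc is the only called member whose promoter held the RBP-J core letters, and its window is shown for that reason. It covers the 250 bases before the second of 2 RefSeq starts, chr4:64046937-64047186 on the minus strand of GRCm38.p6, 5′ to 3′, with TATAAA and the RBP-J core TGGGAA in capitals, the latter 81 bases before the start.
Tnc: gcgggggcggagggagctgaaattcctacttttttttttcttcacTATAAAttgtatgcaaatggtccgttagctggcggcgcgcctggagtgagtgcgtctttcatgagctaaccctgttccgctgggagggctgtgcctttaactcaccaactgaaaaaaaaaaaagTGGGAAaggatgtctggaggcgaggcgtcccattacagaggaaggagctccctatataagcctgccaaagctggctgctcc
Tnc was called with CHX and not with OHT. Of the 17 members called with OHT or CHX, 11 had a promoter in the table, with 14 windows. TGGGAA was in 1 of the 11, beside 21.6% of all promoters, TGANTCA in 1, Adam19, and TATAAA in 2, Adamts1 and Tnc. Adamts15, Adamts5, Col1a1, Fn1, Lox and Tgm2 have no entry.

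Of the proteases Adamts5, an aggrecanase, was at 47.4 and 44.7 without and at 123 and 98.4 with CHX, a 2.41-fold rise (0.93, SE 0.18, limma adjusted p = 0.00355). It too reached 50 in mesodermal cells only with CHX, and its adjusted p with no filter was 0.00859 (range 0.0012 to 0.0449). Adamts1 was at 139 and 136 without and at 270.4 and 243 with CHX, a 1.86-fold rise (0.79, SE 0.20, adjusted p = 0.0131), so that it rose with CHX alone as well as with OHT. Adamts15 went the other way, from 377 and 307 to 132 and 146, and was 2.46-fold lower with CHX (-1.16, SE 0.27, adjusted p = 0.00789). The inhibitor Timp3 was at 76.2 and 98.5 without and at 159 and 161 with CHX, a 1.83-fold rise (0.73, SE 0.19, adjusted p = 0.0133). Its 2 further probe sets with means over 50 rose by 1.01 and 1.16.

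The remaining falls were in collagen processing and in an integrin. The chaperone Serpinh1 was at 2209 and 2746 without and at 632 and 1554 with CHX, 2.27-fold lower (-1.29, SE 0.35, limma adjusted p = 0.0165). Lox, lysyl oxidase, which crosslinks collagen and elastin, was at 99.9 and 72.9 without and at 36.7 and 44.2 with CHX, 2.14-fold lower (-0.76, SE 0.18, adjusted p = 0.0101). Itgb5, a vitronectin-binding integrin chain, was at 368 and 428 without and at 254 and 204 with CHX, 1.74-fold lower (-0.74, SE 0.23, adjusted p = 0.0307). In none of these did the groups overlap. Serpinh1 rested on the first array with CHX alone, without which its log2 change was -0.66 (adjusted p = 0.125, range 0.00174 to 0.125). Of the settings that left out 1 array, Itgb5 lost its call in 4, Adamts1 and Timp3 in 3, and Adamts15, Lox and Serpinh1 in 2. Without replicate 1 of the cells with neither agent 4 of 41 genes were called, and without replicate 1 of the cells with CHX alone 3 were. Col1a1, Tnc and Adamts5 were called in every alternative that tested them.

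Among the 96 other matrix genes 16 rose and 10 fell with CHX. The largest rises were Icam1, an adhesion receptor for leukocytes (3.37), and Ccn1 and Ccn4 (2.46 and 1.61), secreted proteins that bind integrins. The largest falls were Itga8, a nephronectin receptor (-1.51), the proteoglycan Gpc3 (-1.11), and Egfl7, a secreted protein of endothelium (-1.06).

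In the cells with OHT, on other arrays, CHX raised 5 of 41 genes and lowered 8, beside 26.5% of probe sets called higher and 14% lower (40.5% in either direction, and 42.1% of genes at 1 probe set each). The median log2 change was -0.06, beside 0.10 over all probe sets. Over the same arrays 8 of 10 early mesoderm markers fell, and 7 of 10 endoderm and 5 of 7 neuroectoderm markers rose. Called with CHX both without and with OHT were 5 genes, in the same direction: Adamts1, Adamts5, Col1a1, Serpinh1 and Tnc, 55.6% of the first list and 38.5% of the second. The same overlap was not computed over all probe sets, so these shares cannot be read as large or small.

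Col1a1 was at 129 and 172 without and at 522 and 380.4 with CHX, a mean of 151 against 451 (log2 change 1.43, SE 0.22, limma adjusted p = 0.000667), though its second probe set changed by -0.27 (adjusted p = 0.494). Col1a2, the other chain of collagen I, was at 122 and 199.8 without and at 217 and 498 with CHX, 2.22-fold higher (0.97, SE 0.35, adjusted p = 0.0496). This call was lost in 9 of 14 alternatives, and the log2 change was 0.41 without replicate 2 with CHX and OHT (adjusted p = 0.343) and 1.53 without replicate 1 (0.00725; range 0.00725 to 0.343). The groups of both chains did not overlap. Tnc was at 28.3 and 56.1 without and at 117 and 165 with CHX, 3.34-fold higher (1.32, SE 0.23, adjusted p = 0.00124). Adamts5 was at 42.2 and 36.2 without and at 124 and 86.7 with CHX, 2.68-fold higher (1.01, SE 0.18, adjusted p = 0.00165). Adamts1 was at 346 and 409.9 without and at 647 and 928 with CHX, 2.08-fold higher (0.99, SE 0.20, adjusted p = 0.00303), its highest level in the series.

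The 8 genes that fell were 2 glycoproteins, 2 integrin chains, 1 collagen IV chain, 1 protease and 2 genes of collagen folding and crosslinking. Serpinh1 was at 2109 and 3357 without and at 1193 and 1229 with CHX, 2.26-fold lower (-1.12, SE 0.35, limma adjusted p = 0.0252). Sparc was at 5388 and 6203 without and at 1944 and 4697 with CHX (-0.93, SE 0.31, adjusted p = 0.0339). The Sparc value rests on the first array with CHX and OHT, without which the log2 change was -0.30 (adjusted p = 0.172), against -1.56 without the second (0.000175; range 0.000175 to 0.193), and a second Sparc probe set changed by -0.07. Itga5, the fibronectin receptor chain, was at 136 and 226 without and at 59.0 and 109.7 with CHX, 2.14-fold lower (-0.92, SE 0.27, adjusted p = 0.0213). It was -0.59 without replicate 2 with OHT alone (adjusted p = 0.157) and -0.57 without replicate 1 with CHX and OHT (0.161; range 0.00148 to 0.161). Col4a1 was at 1486 and 1654 without and at 740.6 and 1102 with CHX, 1.70-fold lower (-0.78, SE 0.20, adjusted p = 0.0103), and the log2 change was -0.5 without replicate 1 with CHX and OHT (adjusted p = 0.041, range 0.00113 to 0.0691).

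Tgm2 was at 619 and 781 without and at 336 and 476 with CHX, 1.72-fold lower (-0.76, SE 0.23, limma adjusted p = 0.022), so that its level with OHT was lower in the presence of CHX. Adam19, a membrane-bound protease that sheds growth factors, was at 360.3 and 388 without and at 196 and 238 with CHX (-0.73, SE 0.20, adjusted p = 0.015). Itgb1, the common beta chain of matrix receptors, was at 549.7 and 784 without and at 436 and 425 with CHX (-0.58, SE 0.20, adjusted p = 0.0367). That call was lost in 9 of 14 alternatives, with a log2 change of -0.34 without replicate 2 with OHT alone (adjusted p = 0.259, range 0.00728 to 0.259). Fn1, fibronectin, was at 5310.2 and 6399 without and at 3089 and 4938 with CHX (-0.57, SE 0.21, adjusted p = 0.0456). Its call was also lost in 9 of 14 alternatives, and the log2 change was -0.24 without replicate 1 with CHX and OHT (adjusted p = 0.284) and -0.91 without replicate 2 (0.00235; range 0.00059 to 0.284). The groups of none of these genes overlapped. A second Fn1 probe set fell by 1.92 on the log2 scale (adjusted p = 0.000112).

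Of the 41 genes 7 were called without replicate 1 of the cells with CHX and OHT (6 higher and 1 lower), and 7 without replicate 2 of the cells with OHT alone (7 higher and 0 lower). On replicate 1 with CHX and OHT, Col18a1, Hspg2 and Mmp2 also read low, at 1859, 363 and 146 against 4495, 1031 and 345 on replicate 2 with CHX and OHT. Col1a1, Tnc, Adamts1 and Adamts5 kept their call in every alternative that tested them. Among the 96 other matrix genes 20 rose and 15 fell, with Icam1 (2.80), Col27a1 (1.80) and the latent TGF-beta binding protein Ltbp3 (1.72) highest and Itga8 (-1.58), Gpc3 (-1.30) and the collagen-modifying protein Crtap (-1.17) lowest.

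**Figure D4:**
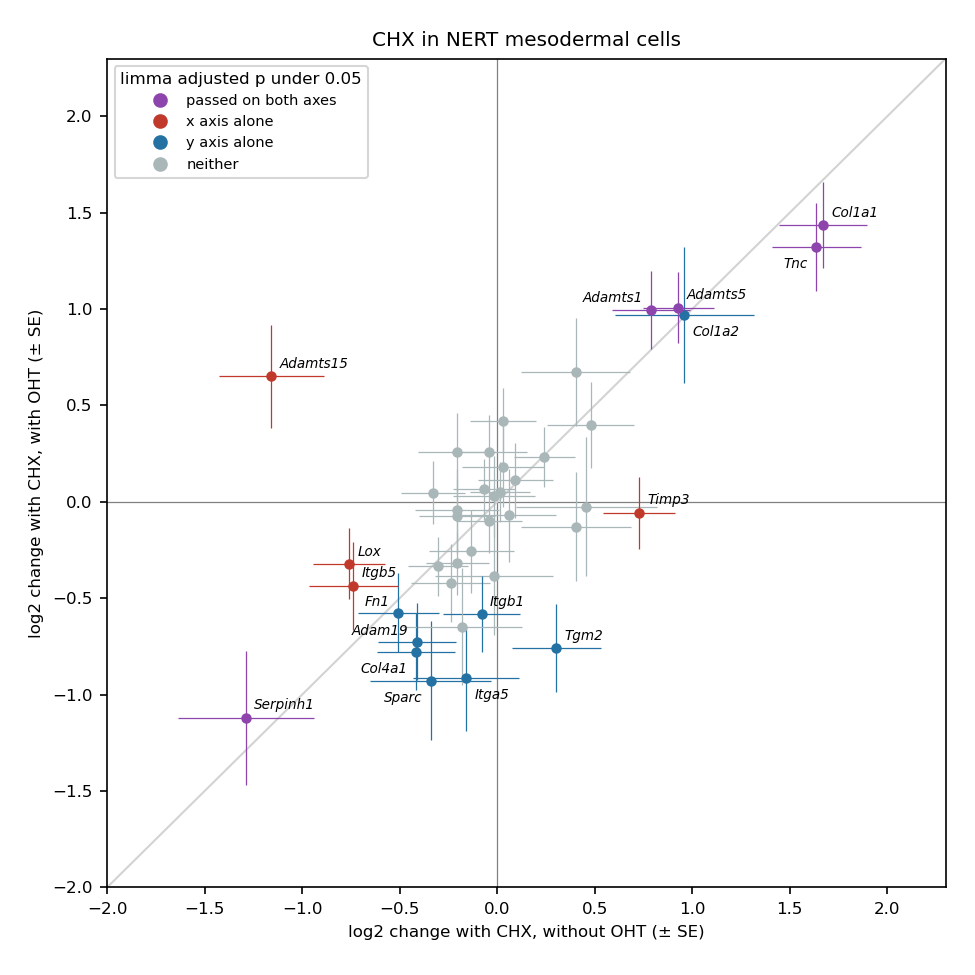
Log2 change with CHX in NERT mesodermal cells without OHT (x axis) against the change with OHT (y axis), 1 point for each of the 41 tested genes with ± SE, coloured by which change passed limma. Col1a1, Tnc, Adamts1 and Adamts5 lie at the upper right and Serpinh1 at the lower left; Adamts15 lies at -1.16 on x and above 0 on y.

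Mesodermal cells were next compared with ESCm, both without OHT and as the mean over the lines. By the paper's methods mesodermal cells were grown on collagen IV in another medium with more serum, and ESCm on gelatine. Medium, serum and substrate therefore cannot be told apart from cell state here. Of the 41 genes 19 were higher in mesodermal cells and 7 lower, beside 26.6% of probe sets called higher and 15.8% lower (42.4% in either direction, and 45.3% of genes at 1 probe set each). The median log2 change was 0.22, beside 0.05 over all probe sets. Pluripotency markers were lower (7 of 10), early mesoderm markers higher (7 of 10), endoderm markers lower (6 of 13), and 3 of 8 fibroblast markers higher and 2 lower, and the part of cell composition was not tested. This and the later comparisons come from a fit of all 16 arrays that takes 1 OHT change for NERT ESCe and ESCm and 1 for the control cells, so that the arrays with OHT and those of ESCe enter each difference and it departs from that of the arrays without OHT alone. Each line has 1 array of ESCm without OHT, and the control line 1 of mesodermal cells.

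By role, 2 of 5 fibrillar collagens were higher and 1 lower, 4 of 11 basement membrane genes higher and 2 lower, 1 of 3 glycoproteins higher and 1 lower, 3 of 8 integrins and receptors higher and 1 lower, 5 of 7 proteases higher, 1 of 3 inhibitors higher and 2 lower, and 3 of 4 folding and crosslinking genes higher. In what follows values are given for NERT ESCm, control ESCm, the NERT mesodermal arrays and the control mesodermal array, in that order. The SE of each change and its limma adjusted p are those of the mean over lines.

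Col5a1 was at 201 and 157 in ESCm and at 789, 728 and 288 in mesodermal cells (log2 change 1.37, SE 0.14, limma adjusted p = 7.19e-06). Col5a2, its partner chain, was at 303 and 174 and at 579.8, 458 and 397 (0.90, SE 0.15, adjusted p = 0.000336). The RNA of Col5a1 and Col5a2 thus rose, while that of Col1a2 fell, from 449.7 and 251 to 180.4, 246 and 158 (-0.78, SE 0.24, adjusted p = 0.0193). Col3a1, which was not called over both lines, fell in the NERT line alone, from 225 to 97.9 and 141 (-0.81, SE 0.28, adjusted p = 0.0417), and stood at 38.4 and 47.2 in the control line.

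In the basement membrane group the laminin chain Lama1 was at 233 and 588 in ESCm and at 51.4, 82.2 and 158 in mesodermal cells, the largest fall (-1.56, SE 0.19, limma adjusted p = 3.49e-05). Lamb1, the beta chain that pairs with it, was at 1171 and 1764 and at 3275, 3256 and 1702 (0.74, SE 0.14, adjusted p = 0.00083), with fitted log2 changes of 1.43 in the NERT and 0.04 in the control line, against 1.46 and -0.05 between the arrays without OHT alone. Nid1, nidogen, which ties laminin to collagen IV, was at 784 and 602 and at 545, 618 and 379 (-0.45, SE 0.12, adjusted p = 0.0103). Higher as well were Col18a1 (0.62, adjusted p = 0.0294), Lama5, a laminin chain of later epithelia (0.45, adjusted p = 0.0191), and the proteoglycan Agrn, agrin (0.55, adjusted p = 0.00172).

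Among the proteases Adamts15 was at 65.3 and 149.8 in ESCm and at 377, 307 and 166 in mesodermal cells (1.36, SE 0.25, limma adjusted p = 0.000835), a difference of 1.07 between the arrays without OHT alone. Adamts1 was at 85.2 and 44.6 and at 139, 136 and 116 (0.76, SE 0.13, adjusted p = 0.00038). Mmp14 (0.72, adjusted p = 0.000606), Mmp2, gelatinase A (0.70, adjusted p = 0.0145) and Adamts9, a versican-cleaving protease (0.61, adjusted p = 0.000351) rose as well. Another Mmp14 probe set, with a mean of 67.3, fell by 0.54 (adjusted p = 0.00594).

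The inhibitors went the other way, except Timp2, which rose by 0.35 (adjusted p = 0.0118). Other Timp2 probe sets with means over 50 changed by 0.52, -0.14 and 0.01. The Timp2 call was lost in 4 of 15 alternatives, with a change of 0.26 in the NERT line alone and 0.17 over the mean of its probe sets. Timp1 was at 659 and 402 in ESCm and at 321, 338 and 295 in mesodermal cells (-0.76, SE 0.16, limma adjusted p = 0.00195). Timp3 was at 124 and 82.3 and at 76.2, 98.5 and 62.4 (-0.34, SE 0.12, adjusted p = 0.0313). Tnc was at 97.3 and 49.9 and at 44.7, 44.6 and 21.9 (-0.61, SE 0.16, adjusted p = 0.00853). Of the conditions compared, NERT ESCm alone had a Tnc mean of 50 or more, so the filter admitted Tnc partly through a group in which it was high. With no filter its limma adjusted p was 0.0134. In the control line alone the change was -0.47 and was not called. Fn1 was called higher by 0.37 (adjusted p = 0.0491). The Fn1 call was lost in 10 of 15 alternatives (0.16 in the control line alone, adjusted p = 0.606, range 0.00455 to 0.606), and its second probe set differed by 0.16 (adjusted p = 0.399).

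Of the integrins Itgav, the alpha chain of fibronectin and vitronectin receptors, was at 629 and 476 in ESCm and at 1157, 1080.3 and 714 in mesodermal cells (0.72, SE 0.10, limma adjusted p = 0.000112). Itgb1 rose by 0.65 (adjusted p = 0.000983) and Itgb5 by 0.45 (adjusted p = 0.0254). Itga1, a collagen-binding chain, was at 113 and 100.4 and at 84.3, 66.6 and 47.1 (-0.61, SE 0.14, adjusted p = 0.00328).

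Of the genes that fold and crosslink collagen Lox was at 31.6 and 7.38 in ESCm and at 99.9, 72.9 and 85.7 in mesodermal cells (1.34, SE 0.15, limma adjusted p = 2.13e-05). Lox reached a mean of 50 in mesodermal conditions alone, and its adjusted p with no filter was 2.37e-05 (range 1.92e-05 to 0.00195). Plod2, a lysyl hydroxylase that prepares collagen for crosslinking, was at 709 and 798 and at 2168, 1587 and 1248 (0.91, SE 0.14, adjusted p = 0.000273). Serpinh1 rose by 0.66 (adjusted p = 0.0401). Tgm2, the fourth of the group, stood at 119.9 and 137 and at 102, 135 and 106 and was not called.

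Fitted by line, 16 of 41 genes were higher and 5 lower in NERT mesodermal cells than in NERT ESCm (22.9% of probe sets called higher and 11.3% lower, 34.1% in either direction, and 37.6% of genes at 1 probe set each), and 10 higher and 4 lower in the control line (12.8% and 8.16%, 20.9% in either direction, and 23.3% of genes). Called in both with the same direction were 9 genes, 42.9% of the NERT list and 64.3% of the control list: Adamts1, Adamts9, Col5a1, Col5a2, Itgav, Itgb1, Lox and Mmp14 higher, and Lama1 lower. The overlap over all probe sets was not computed, so these shares too cannot be read as large or small. Col4a2 and Lamc1 were called lower in the control line and not in the NERT line (-0.49, adjusted p = 0.0485, and -0.39, adjusted p = 0.0391), and Nid2, the second nidogen, higher in the NERT line and not in the control line (0.48, adjusted p = 0.0171). With the 12 conditions as groups 15 genes were called in place of 26. Of the settings that left out 1 array, Col18a1 and Serpinh1 lost their call in 2 and Col1a2, Lama5, Itgb5 and Timp3 in 1. Among 101 other matrix genes 35 were higher and 10 lower in mesodermal cells, led by the fibulin Efemp1 (3.87), Gpc3 (2.97) and Frem2, a basement membrane protein (2.88), and by Icam1 (-1.60), the laminin chain Lama3 (-1.49) and the syndecan Sdc4 (-1.35).

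**Figure D5:**
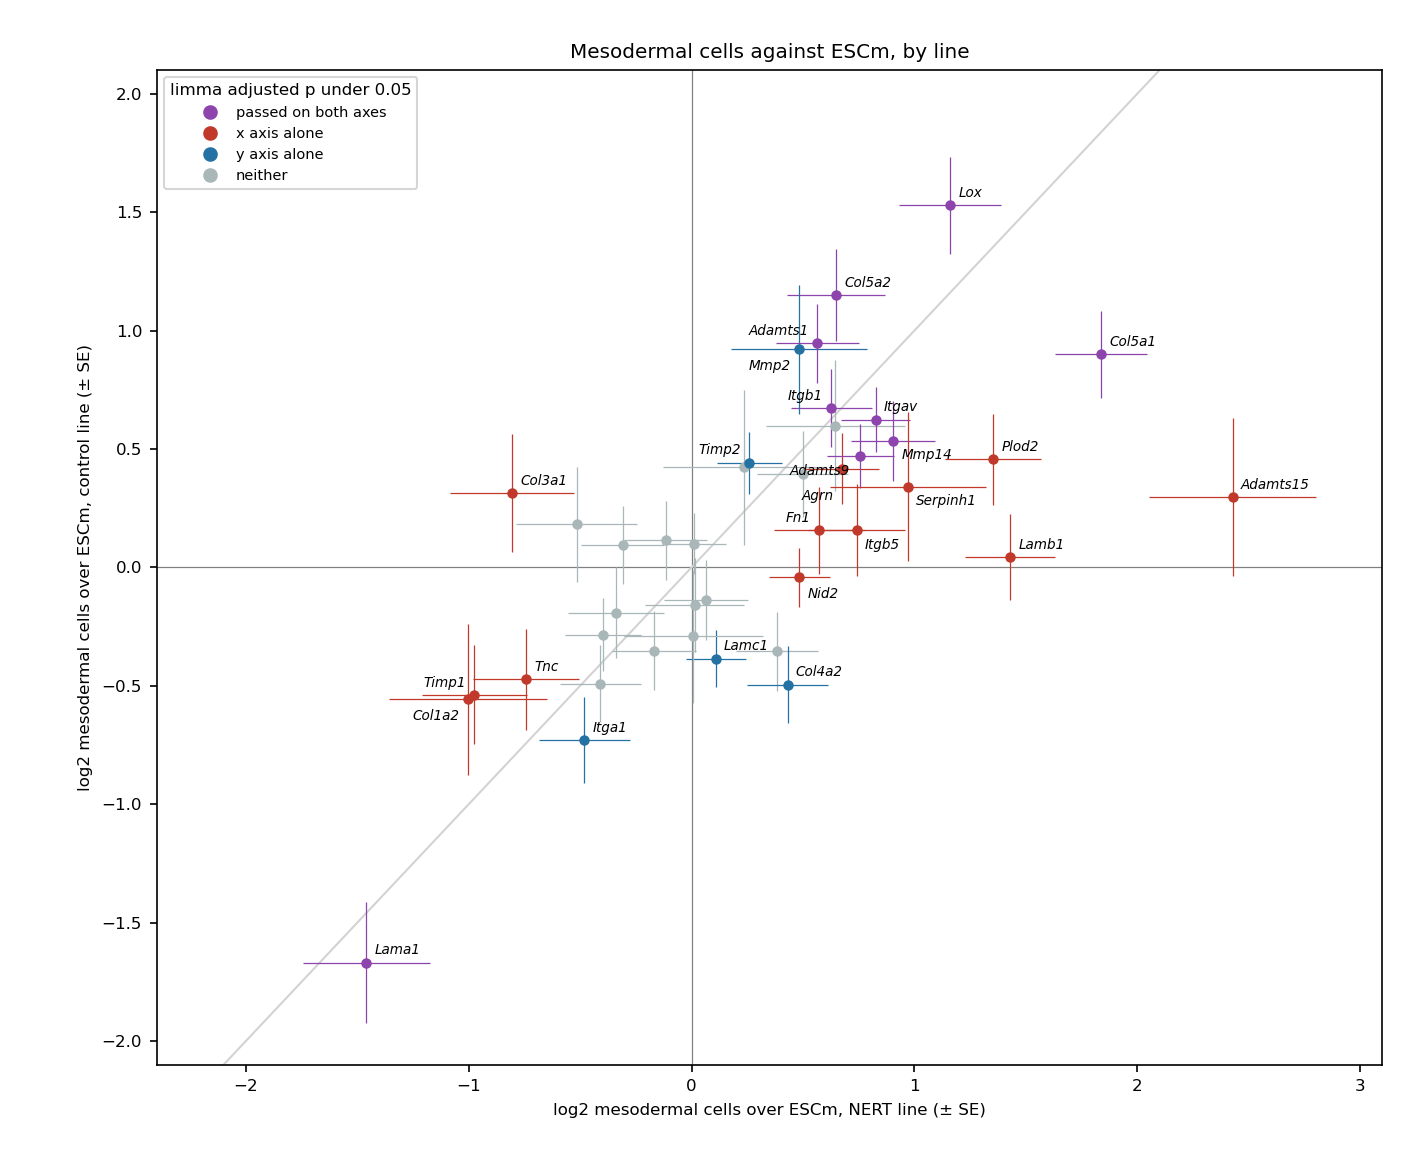
Log2 difference of mesodermal cells from ESCm without OHT in the NERT line (x axis) and in the control line (y axis), 1 point for each of the 41 tested genes with ± SE, coloured by which passed limma. The grey diagonal marks equal values: Lama1 lies at the lower left in both lines, and Lamb1 at 1.43 on x and 0.04 on y.

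The difference between the lines in this change was tested after the data had been seen. Lamb1 alone passed, 1 of 41 beside 1.12% of probe sets called higher and 0.251% lower (1.37% in either direction, and 1.87% of genes at 1 probe set each). It rose 2.79-fold in the NERT line, from 1171 to 3275 and 3256, and was at 1764 and 1702 in the control line without OHT (fitted difference of log2 changes 1.39, against 1.51 between the arrays without OHT alone, SE 0.27, limma adjusted p = 0.0286). Its 2 other bright probe sets gave differences of 1.45 (adjusted p = 0.0578) and 1.19 (adjusted p = 0.0424). Over the same difference 5 of 10 early mesoderm markers were higher, and 5 of 13 endoderm markers higher and 1 lower. Adamts15 had a larger difference with a wider error (2.13, SE 0.50, adjusted p = 0.0623, against 1.89 between the arrays without OHT alone). The Lamb1 call was lost without either NERT mesodermal array that enters it (1.38, adjusted p = 0.105 without replicate 1, and 1.39, 0.0746 without replicate 2; range 0.000904 to 0.342). Without either array with CHX and OHT 3 members were called. Of 101 other matrix genes 7 had a higher change in the NERT line and 0 a lower one, led by P4ha2, Gpc3 and Frem2.

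NERT and control mesodermal cells without OHT were then set against each other, with 2 arrays against 1 and the control array with OHT entering through the shared OHT change. Of the 41 matrix genes 5 were higher in the NERT line and 1 lower, beside 4.42% of probe sets called higher and 1.49% lower (5.9% in either direction, and 7.55% of genes at 1 probe set each). Of the 41, 37 lay above 0, with a median of 0.32 beside 0.04 over all probe sets. Early mesoderm markers were higher as well (8 of 10), with sums of 4488 to 5364 against 1638 to 1666, and 2 of 13 endoderm markers were lower. Their part in the matrix values was not tested, and line and clone cannot be told apart.

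Col5a1 was at 789 and 728 in NERT and at 288 in control mesodermal cells (1.27, SE 0.21, limma adjusted p = 0.00409), the call that held in all 13 alternatives. None of these alternatives left out a control array. Fn1 was at 4404 and 5248 against 2170.1 (1.10, SE 0.21, adjusted p = 0.00899). Lamb1 was at 3275 and 3256 against 1702 (0.88, SE 0.20, adjusted p = 0.0239), and Agrn at 3217 and 2770.4 against 1623 (0.75, SE 0.17, adjusted p = 0.0202). The 4 genes are fibril, fibronectin and basement membrane constituents. Itgav was at 1157 and 1080.3 against 714 (0.60, SE 0.15, adjusted p = 0.0395), while the mean over its probe sets differed by -0.05 (adjusted p = 0.837; range 0.0184 to 0.837). Lama1 was lower, at 51.4 and 82.2 against 158 (-1.05, SE 0.28, adjusted p = 0.0497).

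Without replicate 1 or without replicate 2 of the NERT cells 2 of 41 genes were called, and with the 12 conditions as groups 1 was. Without either array with CHX and OHT 10 were called. Of the settings that left out 1 array, Lama1 lost its call in 4, Lamb1 and Itgav in 2 and Agrn and Fn1 in 1. Of 101 other matrix genes 12 were higher and 2 lower, led by the proteoglycan Bgn, biglycan (2.05), Frem2 (1.81) and Gpc3 (1.51), and by Col2a1 (-0.83) and Lama3 (-0.64).

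In ESCm the lines were compared after the data had been seen, with 1 array without OHT in each line and the arrays with OHT and of ESCe entering through the shared OHT changes. Col3a1, the chain of collagen III, was at 225 in NERT and 38.4 in control ESCm without OHT, the latter under the level of 50 (fitted log2 difference 2.04, SE 0.31, limma adjusted p = 0.0139, against 1.98 between these arrays). It was 1 of 41 beside 0.0967% of probe sets called higher and 0.159% lower (0.255% in either direction, and 0.337% of genes at 1 probe set each). With OHT, on other arrays, it stood at 224 and 27.4. Col3a1 reached a mean of 50 in conditions of the NERT line alone, and so entered the test through the line in which it was high. It kept its call with no filter on low values. The call was lost with the 12 conditions as groups (1.98, adjusted p = 0.239) and over the mean of its probe sets (1.33, adjusted p = 0.0624; range 0.00529 to 0.239), and without either mesodermal array with CHX and OHT 3 members were called. Of 13 endoderm markers 6 were lower in NERT ESCm, with sums of 2684 to 2928 in NERT ESC and 5567 to 5985 in control ESCm, and 0 of 8 fibroblast markers were called although their sum, mostly of Acta2 and Tagln, was 8060 to 8546 against 4077 to 4319. The part of either in the Col3a1 value was not tested.

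Other differences between the lines in ESCm did not pass at an adjusted p under 0.05. Limma gave 17 members an unadjusted p under 0.05, beside 6.67% of probe sets. The lack of further calls therefore does not show that the lines match in their matrix genes. Lama1 was at 233 in NERT and 588 in control ESCm (fitted difference -1.26, SE 0.31, limma adjusted p = 0.189). Adamts15 was at 65.3 and 149.8, a difference of -0.95 between these arrays and of -1.28 in the fit (SE 0.41, adjusted p = 0.417). Of 101 other matrix genes the hyaluronan receptor Cd44 (1.89) and Bgn (1.70) were higher and P4ha2, a collagen prolyl hydroxylase, lower (-1.23).

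The medium made no called difference. Between NERT ESCe and ESCm 0 of 41 members passed limma, beside 0% of probe sets, and at an unadjusted p under 0.05 there were 1 member, Adamts9 (log2 difference 0.42), and 2.97% of probe sets. Adamts9 stood at 92.1 and 105.9 in ESCe and at 61.3 and 73.7 in ESCm without and with OHT. The log2 differences of the 41 genes ran from -0.21 to 0.42.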

How the data were processed

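Cells of 12 conditions were read on 16 Affymetrix Mouse Genome 430 2.0 arrays. The authors deposited dChip model-based intensities on a linear scale, after invariant-set normalization in which control mesodermal cells with OHT served as the baseline array. Gene symbols came from the platform annotation. Here log2(intensity + 25) was fitted in R 4.3.3 by limma 3.58.1 (lmFit, then eBayes with a mean-variance trend) over probe sets with at least 1 condition mean of 50 or more, and p-values were adjusted by Benjamini-Hochberg at a threshold of 0.05. The 8 NERT mesoderm arrays (23971 probe sets, 4 residual degrees of freedom) gave the comparisons of OHT and CHX in mesodermal cells, and all 16 arrays (25847 probe sets, 6 residual degrees of freedom) the others, with 1 OHT change shared by NERT ESCe and ESCm and 1 by both control populations, and with single arrays taken to vary as the replicated groups. The scripts were tested on simulated data. Named genes are the called members, with values on every array for the largest 8 in each direction, the gene with the brightest probe set of each role, and at most 3 other matrix genes in each direction. Members, gene lists and tests were chosen with earlier results of these data known. Alternatives were a value of 5 added in place of 25, no filter, quantile normalization, the 12 conditions as groups, a replicate block, the mean over a gene's probe sets, single lines, and each of 8 arrays left out in turn. These 8 were the NERT mesodermal arrays, so no array of ESC or control cells was left out. The number of arrays limits the precision. Promoters are RefSeq sequences of GRCm38.p6. Python 3.11.15 with numpy 2.4.6, pandas 2.3.3 and matplotlib 3.10.9 made the tables and figures.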

Additional observations from a re-analysis of the deposited data

Results flagged for a closer look

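The change of Lamb1, the laminin beta chain, from ESCm to mesodermal cells differed between the NERT and the control line by 1.39 on the log2 scale (SE 0.27, limma adjusted p = 0.0286). The fitted change was 1.43 for NERT cells and 0.04 for control cells, with the arrays with OHT entering through a shared OHT change. Between the arrays without OHT alone, 1 of each population in the control line and 1 of ESCm and 2 of mesodermal cells in the NERT line, the changes were 1.46 and -0.05.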

How the results depend on the processing

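Of 61 calls of members, 19 held in every alternative, and of 867 alternative values 714 kept the call and 153 lost it. A single value changed sign, that of Itgav between NERT and control mesodermal cells, which was -0.05 over the mean of its probe sets. With 1 array left out, members called with OHT in mesodermal cells were 1 to 2 (main 2), under CHX 0 to 6 (main 2), for their difference 0 to 1 (main 0), with CHX 3 to 13 without OHT (main 9) and 7 to 18 with OHT (main 13), with OHT in ESC 1 to 2 (main 1), for the difference of ESC from mesodermal cells 0 to 1 (main 0), for mesodermal cells against ESCm 20 to 28 (main 26), between lines in mesodermal cells 2 to 10 (main 6) and in ESCm 1 to 3 (main 1), and for the difference between lines 0 to 3 (main 1). With the 12 conditions as groups there were 15 calls for mesodermal cells against ESCm, 1 between lines in mesodermal cells, 0 in ESCm and 0 for the difference between lines. No filter gave 1 with OHT under CHX, quantile normalization 1 for the difference of ESC from mesodermal cells, the control line alone 14 for mesodermal cells against ESCm, and the mean over probe sets 0 for the difference between lines. The cause was not tested.

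Quantile normalization moved the share of higher among called probe sets from 64.3% to 50.4% with CHX without OHT, from 65.4% to 49.9% with OHT, from 62.7% to 48.7% for mesodermal cells against ESCm, and between lines from 74.8% to 60.1% in mesodermal cells and from 37.9% to 50.5% in ESCm. Same-numbered replicates correlated in their deviations at 0.007 to 0.513, with 2 of the 6 pairs of groups under 0.1, and were not treated as pairs. With the replicate block probe sets called with OHT in mesodermal cells went from 147 higher and 67 lower to 215 and 124, and 3, 2, 0, 11 and 13 members were called for OHT, OHT under CHX, their difference, CHX and CHX with OHT, against 2, 2, 0, 9 and 13. No group of ESC or control cells had a replicate, and genes dim on these arrays have understated changes.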
